A study of Mus musculus with 19 samples.

Results

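The comparison covers 5 of the 19 samples of the series, 18 of which have a peak list. They are the day 2 (D2) libraries of the knockout lines KO1 and KO2 and of 3 wild-type (WT) replicates, A, B and C, and were chosen by their titles. All are genomic DNA of pre-iPSCs, stalled intermediates of reprogramming that were derived from mouse embryonic fibroblasts. Each was grown with ascorbic acid at 50 µg/mL and 2i, which is the GSK3 inhibitor CHIR-99021 with the MEK inhibitor PD-0325901. The D0 libraries carry the same treatment in their labels, although the growth protocol speaks of culture with or without these compounds. KO1 and KO2 have 1 library per day each, and the labels do not say which gene is deleted or whether both lines lack the same one. Whether the lines are single clones is not stated either. All deposited peaks on chromosomes 1 to 19 were used, and chromosome 5 was kept apart. The question was whether the early gain of 5hmC from D0 to D2 is intact in the knockout.

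5-Hydroxymethylcytosine (5hmC) is made by TET dioxygenases, which oxidise 5-methylcytosine and use ascorbic acid as a cofactor. It is both an intermediate of DNA demethylation and a mark found over active enhancers and gene bodies. Replacement of the fibroblast pattern of methylation is part of the way from a stalled intermediate to an induced pluripotent stem cell. Enrichment sequencing gives positions where captured DNA exceeds an input, so a peak list shows where 5hmC was detected, and not how much of it a cell holds. In these bulk cultures, fewer cells with the mark and less of the mark per cell cannot be told apart. No gene annotation of the files' build, mm9, was used here. Regions are therefore given by position alone, and neither the labelled cell type nor the deletion could be checked.

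The libraries stood apart by line before any comparison of positions. Off chromosome 5, WT A held 150364 peaks at D2, WT B 123385 and WT C 99771. KO1 held 123768 and KO2 108504, so both lay inside the WT range. The sequence under peaks was 60.3, 53.3 and 41.1 Mb in WT A, B and C, 56.8 Mb in KO1 and 41.7 Mb in KO2. The KO minus WT difference was -0.08 in log2 peak number and -0.07 in log2 covered sequence (two-sided exact permutation p = 0.8 for each). With 2 libraries against 3 the smallest p is 0.1, so none of the exact tests at D2 could pass 0.05. Sequencing depth, inferred from what 1 read adds to a deposited fold value, was 1.61, 1.35 and 1.24 times the input in WT A, B and C, 1.67 times in KO1 and 1.23 times in KO2. At D0 these depths were 1.40, 1.47 and 1.00 times in WT A, B and C, 1.23 times in KO1 and 1.15 times in KO2. The 1.00 of WT C may not be a depth against the input, since the run name of that list lacks the word input. The part that depth played in the change from D0 to D2 was not tested. The shallowest libraries at D2, WT C and KO2, also share the style of their run names, and WT B shares its style with KO1. Peaks of KO1 were the longest, with a median of 373 bp, against 328, 355 and 342 bp in WT A, B and C and 321 bp in KO2. Peaks of at least 2000 bp numbered 308 in KO1 and 51 in KO2, outside the WT counts of 158, 165 and 82 on either side. At D0 the lines had started from 54536 peaks (KO1) and 81783 (KO2), and WT from 87118, 108389 and 57201.

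**Figure D1:**
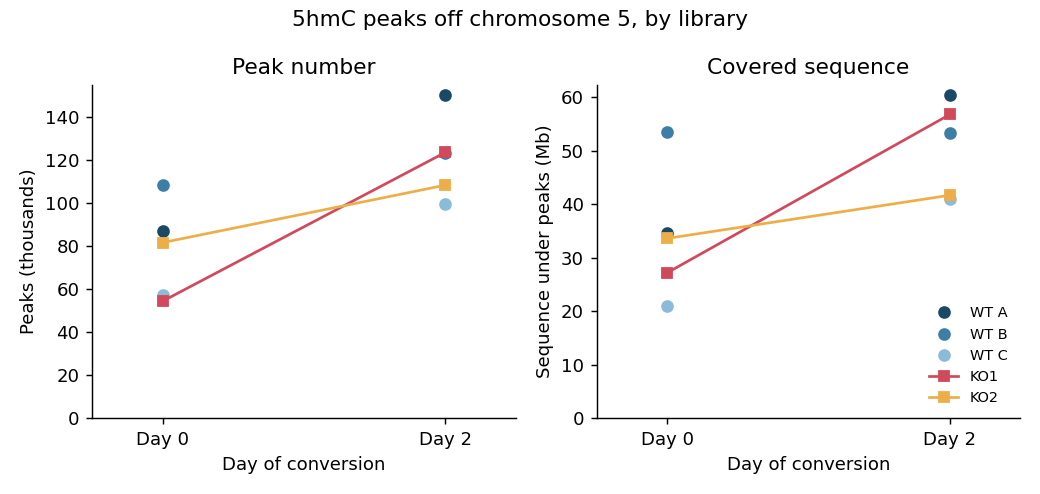
Peaks (left, in units of 1000) and sequence under peaks (right, Mb) off chromosome 5 at day 0 and day 2, 1 point per library. KO1 and KO2 are joined across days because their titles name the same line, and WT replicates are not joined. At day 2 KO1 (123768 peaks) and KO2 (108504) lie between WT C (99771) and WT A (150364).

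Early gain of 5hmC was found in both knockout lines, at a share of regions inside the WT range in KO1 and below it in KO2. A region was called gained when 2 WT replicates both had a peak there at D2 and neither had one at D0, and it was then read in the replicate left out and in both KO lines. The 3 choices of replicate gave 28931 to 45410 gained regions. A D2 peak was found in 88.9% of them in WT A, 81.7% in WT B and 61.9% in WT C, with a mean of 77.5% ± 14.0 (SD, n = 3). The share was 74.9% in KO1 (70.5 to 77.6% over the 3 sets), inside the WT range. It was 50.9% in KO2 (45.8 to 53.8%), below every WT value. At D0 the same regions had a peak in 6.06, 19.4 and 11.7% of cases in WT A, B and C, in 6.09% in KO1 and in 12.8% in KO2. A D2 peak and no D0 peak was found in 83.1, 64.6 and 52.7% of the regions in WT A, B and C. The share was 69.3% in KO1 and 40.4% in KO2 (KO minus WT -11.9 points, exact permutation p = 0.4). The D0 library was that of the same KO line or WT letter. WT letters showed no pairing between days, so these WT values rest on a match by letter alone.

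The difference between the knockout mean and WT was -14.6 points (two-sided exact permutation p = 0.3) and rested on KO2. It was -2.60 points with KO1 alone and -26.6 points with KO2 alone. WT replicates moved it too, to -7.31 points without A, -8.69 points without B and -17.8 points without C. Within the run-name styles, the comparison has 1 library on each side and no test. On the regions chosen without WT B, KO1 had a peak in 76.5% and WT B in 81.7%. On those chosen without WT C, KO2 had a peak in 45.8% and WT C in 61.9%, at depths of 1.23 and 1.24 times the input. When each library was cut to its 54997 strongest peaks the WT values drew together, at 72.9, 75.5 and 72.5%. On the same 3 sets KO1 then had 65.5, 65.8 and 65.4% and KO2 49.6, 49.9 and 48.3%. The difference was then -16.2 points, with the KO libraries below all WT libraries (exact permutation p = 0.1, the smallest possible). The 54997 peaks were counted with chromosome 5, which held 10.3% of all D2 peaks of KO1, 5.69 to 6.34% in WT and 4.76% in KO2. The numbers left off chromosome 5 were therefore not made equal, and the part this played was not tested.

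KO2 lay below the WT mean in all 5 classes of region length, and below each WT replicate in the 4 classes from 250 bp. Gained regions of 250 to 400 bp had a D2 peak in 67.8% ± 18.1 of cases in WT (SD, n = 3), in 63.9% in KO1 and in 40.8% in KO2. Those of at least 1000 bp had one in 97.9% ± 2.67, 97.0% and 78.9%. Length goes with peak strength, so these shares also describe how strong a gained region was.

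**Figure D2:**
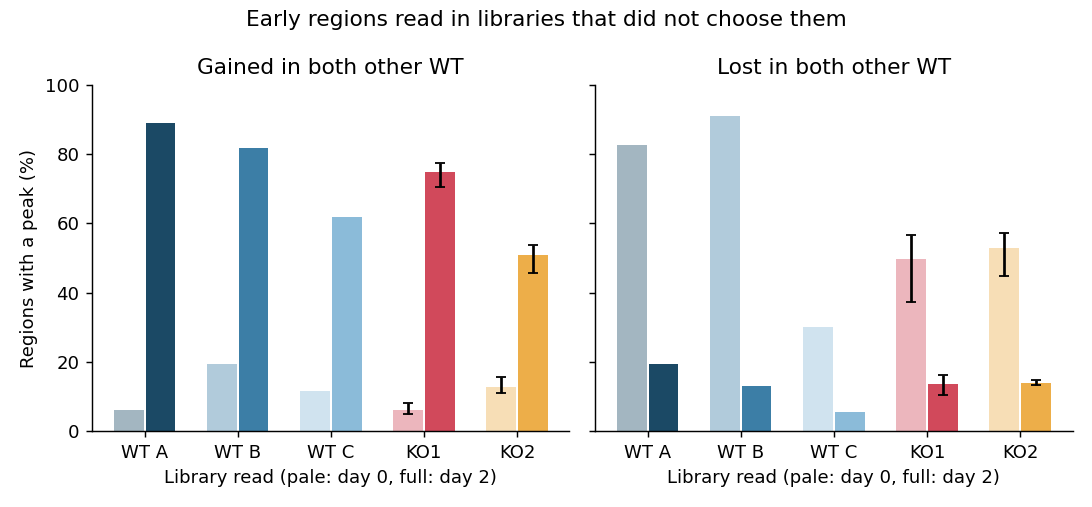
Share of regions (%) with a peak at day 0 (pale) and day 2 (full) in each library, for regions gained (left) or lost (right) in both of the other WT replicates. Bars of KO1 and KO2 are means over the 3 sets of regions, with whiskers from the lowest to the highest set. For gained regions KO1 at day 2 (74.9%) lies among the WT bars and KO2 (50.9%) below them.

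Gained regions fell into 4 outcomes in the knockout. With all 3 WT replicates required, 23495 regions were gained. Of these, 11055 (47.1%) had a D2 peak in both KO lines, 7764 (33.0%) in KO1 alone, 1768 (7.53%) in KO2 alone and 2908 (12.4%) in neither. Regions present in both lines were the longest, with a median of 519 bp, against 455 bp for those of KO1 alone, 410.5 bp for those of KO2 alone and 392 bp for those in neither. Some were there already at D0: KO2 had a D0 peak in 20.8% of the regions that only it shared with WT at D2, and KO1 in 1.70% of them. Among regions with no D2 peak in either line, KO1 had a D10 peak in 21.3% and KO2 in 28.5%. In the regions of KO1 alone, KO2 had a D10 peak in 49.1%. All these shares lay below those over all 23495 gained regions, 53.8% in KO1 and 62.6% in KO2. Over all 214152 regions with a D2 peak in at least 1 library they were 41.4 and 40.4%.

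The longest regions of each outcome show the pattern at single positions. The longest gained region with a peak in both lines lay on chromosome 18, 73848860 to 73853469 (4610 bp). Its D2 peaks covered 4429, 4551 and 4555 bp in WT A, B and C, 4485 bp in KO1 and 2168 bp in KO2, with 0 bp in all 5 libraries at D0. At D10 it had 0 bp in each WT library but 4019 bp in KO1 and 3873 bp in KO2. The second, on chromosome 15 (35222936 to 35225511), was covered over 1979, 2442 and 1876 bp in WT, 2047 bp in KO1 and 770 bp in KO2. KO1 already had 954 bp there at D0. The third lay on chromosome 18 (76213314 to 76215729), where KO2 had 283 bp at D0. The fourth lay on chromosome 11 (5068083 to 5070474), where KO1 had 1999 bp and KO2 1016 bp at D2. At D10 this region went the other way from the first, with 2392 bp in each WT library, 0 bp in KO1 and 525 bp in KO2. At D2, in all 4 regions KO1 lay within the range of the WT values and KO2 below the lowest of them. WT peaks chose and bounded these regions, so the WT values are no fair standard for the KO values.

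A region gained in WT and KO1 but not KO2 lay on chromosome 13, 94798030 to 94800614. WT A, B and C had 2377, 2579 and 2516 bp there, KO1 1046 bp and KO2 0 bp, while at D10 KO2 had 934 bp. The next longest of this kind were on chromosome 10 (111030926 to 111033168), chromosome 17 (35642549 to 35644523) and chromosome 18 (35808322 to 35810250), with 783 to 1929 bp in KO1. The longest with a D2 peak in neither line, on chromosome 7 (125633220 to 125634888), had 1229, 1481 and 397 bp in WT A, B and C. It had a peak in no library at D0 or D10. The others in neither line lay on chromosome 15 (59111316 to 59112658), chromosome 10 (60230079 to 60231300) and chromosome 19 (16950031 to 16951228). The longest in KO2 but not KO1, on chromosome 1 (168094222 to 168095411), had 876, 1135 and 750 bp in WT and 670 bp in KO2. Those after it lay on chromosome 7 (35459969 to 35461155), chromosome 2 (52489447 to 52490586) and chromosome 6 (134094349 to 134095455), with 277 to 726 bp in KO2. All 8 of the regions in neither line or in KO2 alone were 1107 to 1669 bp long, and the 4 in both lines were 2392 to 4610 bp long.

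Windows of 10 kb gave the same comparison without a choice of regions, as log2 of covered bp plus 200. No window passed the test between KO and WT at D2: 0 of 25707 off chromosome 5 were higher and 0 were lower (0% called each way, limma, adjusted p under 0.05). An unadjusted p under 0.05 was found in 745 (2.90%). A share of 0.05 is given on average where no window differs, so such a count is no sign of a difference by itself. The lowest adjusted p was 1. With each line fitted alone, the median log2 difference from WT off chromosome 5 was -0.001 in KO1 and -0.055 in KO2. In these fits a line alone was 1 library, assumed to vary like the other groups. The median standard error of a KO minus WT difference was 0.57, and the median 95% half-width, before adjustment, 1.20 on the log2 scale. Far larger differences did not pass after adjustment either. On chromosome 4, 152930001 to 152940000 had a difference of 3.42 (standard error 0.72) and was not called. The 0 calls therefore do not show that windows were alike. The windows of lowest p are a description only. On chromosome 15, 13060001 to 13070000 had 0 bp in each WT library at D2, 1126 bp in KO1 and 2019 bp in KO2. All 5 lines had peaks there at D0, from 327 to 1261 bp. On chromosome 7, 127740001 to 127750000 had 1422, 1056 and 891 bp in WT A, B and C and 0 bp in both KO lines, which had 498 and 263 bp at D0.

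With the strongest 54997 peaks only, 4 of 14484 windows off chromosome 5 were lower in KO and 0 higher (limma, adjusted p = 0.0251, 0.04995, 0.0251 and 0.0306). They lay on chromosome 11 (79490001 to 79500000), chromosome 17 (35640001 to 35650000 and 47580001 to 47590000) and chromosome 18 (65660001 to 65670000), and in each both KO lines had 0 bp under these peaks. With every peak counted, these windows were not empty: KO1 had 2098, 1730, 2383 and 1637 bp and KO2 309, 330, 1624 and 226 bp, in that order. In the chromosome 11 window WT A, B and C had 4052, 3285 and 2828 bp. Its adjusted p was 1 with all peaks, as was that of the other 3. With each line fitted alone under this setting, the median log2 difference from WT over the 14484 windows was 0.00 in KO1 and -0.09 in KO2.

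Windows that changed from D0 to D2 in WT mostly had a difference of the same sign in each knockout line, with the smaller medians in KO2. In WT 1554 windows rose (6.05%) and 310 fell (1.21%), and in KO 664 rose (2.58%) and 86 fell (0.335%; limma, adjusted p under 0.05, off chromosome 5). Without scaling the split was 3769 to 105 in WT and 1725 to 19 in KO. This setting moved the median change of all windows from 0.21 to 0.68 in WT and from 0.08 to 0.66 in KO. In the 1554 windows that rose in WT, the median D2 minus D0 change was 1.69 in KO1 and 1.27 in KO2, beside 0.00 and 0.06 over all windows. The change was above 0 in 92.5% of them in KO1 and in 89.6% in KO2, beside 49.8 and 52.3% of all windows. The WT medians, 2.10 to 2.12, chose these windows and are no fair standard for the KO values. In the 310 that fell in WT, the medians were -1.57 in KO1 and -1.14 in KO2.

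The reverse reading gave a like picture. In the 664 windows that rose in KO, the 3 WT D2 libraries lay 1.54 to 1.61 above the WT D0 mean, and in the 86 that fell they lay at -1.43 to -1.19. Both genotypes called 335 rising windows, 21.6% of the WT calls and 50.5% of the KO calls. The WT calls rest on 6 libraries and the KO calls on 4, so their numbers and shares do not compare like with like. They shared 33 falling windows, 10.6% of the WT calls and 38.4% of the KO calls, and 0 windows were called in opposite directions. The test of the difference itself, the interaction of day and genotype, called 0 windows higher and 0 lower (0% each way, limma). An unadjusted p under 0.05 was found in 1078 of the 25707 windows, below the average share of 0.05 where no window differs. As for KO minus WT at D2, the 0 calls do not show that the early changes were alike. In the 664 windows that rose in KO, which both lines chose, the medians were 2.74 in KO1 and 2.44 in KO2, and in the 86 that fell they were -2.64 and -2.67. With a single D2 library left in the arm, KO had 0 windows up and 0 down without KO1, and 226 up and 55 down without KO2.

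**Figure D3:**
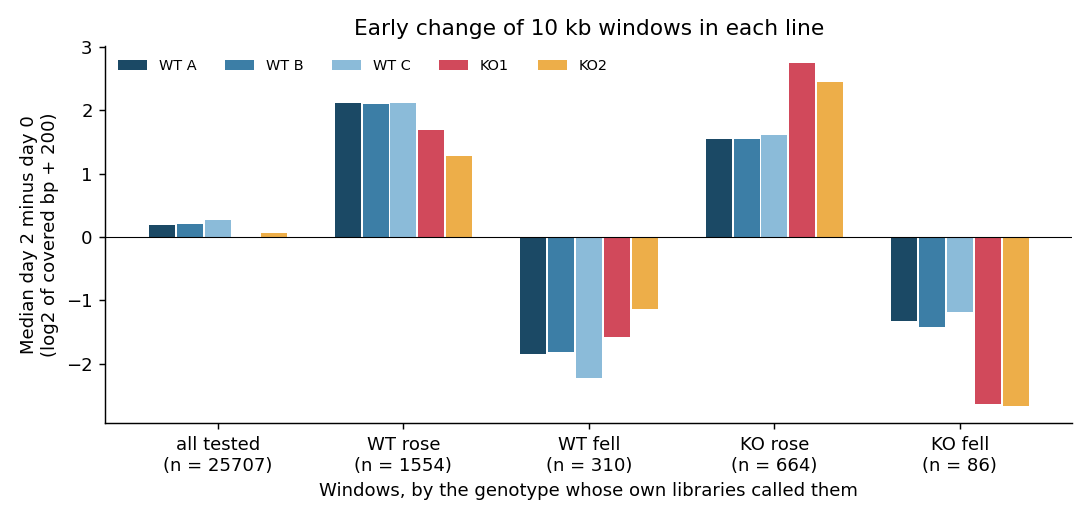
Median change from day 0 to day 2 (log2 of covered bp plus 200) in each line, for all 10 kb windows off chromosome 5 and for those that passed the test in WT or in KO. Each WT library is set against the mean of the WT day 0 libraries, and each KO line against its own day 0. The genotype that chose a set of windows has the larger bars there, and in windows that rose in WT the medians are 1.69 in KO1 and 1.27 in KO2.

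Early loss of 5hmC was also found in both lines. Regions with a peak in 2 WT replicates at D0 and in neither at D2 numbered 9457 to 25259. At D2 the replicate left out still had a peak in 19.5% (A), 13.0% (B) and 5.44% (C) of them, with a mean of 12.7% ± 7.04 (SD, n = 3). KO1 had one in 13.5% and KO2 in 13.9%, both inside the WT range, and the KO minus WT difference was 1.06 points (exact permutation p = 0.8). A D0 peak and no D2 peak, with days matched by line or WT letter, was found in 66.5, 79.0 and 27.9% of these regions in WT A, B and C. The share was 40.7% in KO1 and 43.0% in KO2 (difference -16.0 points, exact permutation p = 0.4). Here too the WT values rest on a match by letter alone. The D0 shares behind these values were uneven: 82.7, 91.2 and 30.2% in WT A, B and C, 49.7% in KO1 and 52.9% in KO2. The D0 list of WT C is also the only list whose run name lacks the word input, and what this changed was not tested. Of the 7005 regions lost in all 3 WT replicates, 5605 (80.0%) had a D2 peak in neither KO line and 188 (2.68%) in both. Only 55.1% of the 5605 had a D0 peak in KO1 and 56.7% in KO2, so the rest had no peak to lose in that line.

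The D2 list of KO2 overlapped the WT lists less than that of KO1 did, and the overlaps of KO1 fell into the range of the WT pairs with some replicates or below it, depending on the peaks used. Overlap of 2 lists is given as the bp under peaks of both, in percent of the bp under peaks of at least 1 of them. Pairs of WT lists shared 53.0% (A and B), 46.8% (A and C) and 50.4% (B and C). KO1 shared 48.1, 49.6 and 44.4% with WT A, B and C, and KO2 shared 33.7, 34.9 and 35.0%. The lines shared 33.8% with each other, so KO2 was as far from KO1 as from WT. The mean over KO-WT pairs minus that over WT pairs was -9.12 points (exact permutation p = 0.2). The difference was -2.70 points with KO1 alone and -15.5 points with KO2 alone. With the strongest peaks only it was -11.5 points (exact permutation p = 0.1, the smallest possible). KO1 then shared 41.6, 43.5 and 40.7% with WT, below every WT pair (45.4 to 48.4%), and KO2 29.2 to 30.4%. As for the gained regions, this cut did not make the numbers of peaks off chromosome 5 equal. Counted as the share of peaks that overlap by 1 bp, the difference was -8.997 points (exact permutation p = 0.1). Both lines overlapped the WT lists of D2 more than those of other days: KO2 shared 34.5% on average with the WT lists of D2, 18.3% with those of D0 and 12.5% with those of D10. KO1 shared 47.4, 19.8 and 13.1%.

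In all, the 5 lists merged into 214152 regions. A peak in all 5 libraries was found in 44909 (21.0%), which had a median length of 676 bp. A further 16496 were in all WT replicates and KO1 but not KO2, against 4035 in all WT replicates and KO2 but not KO1. Regions in all WT replicates and neither KO line numbered 5160 (2.41%), and regions in both KO lines and no WT replicate 3260 (1.52%). Other sets of 3 libraries alone held 755 (WT C, KO1 and KO2) to 8185 regions (WT A, WT B and KO1). Other pairs alone held 1124 (WT C and KO2) to 7972 (WT A and WT B). Both counts split by genotype lay within these ranges. Beside these, 23223 regions were in KO2 alone and 15180 in KO1 alone, with 23018, 9131 and 4366 in WT A, B or C alone. Regions of 1 library were short, with medians of 248 to 286 bp. The longest in all WT replicates and neither KO line was the chromosome 7 region above. The next were on chromosome 3 (31430941 to 31432303) and chromosome 1 (134603453 to 134604813), where WT had 1015, 875 and 854 bp, then the regions of chromosomes 15 and 10 listed above for neither line.

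The longest region of both KO lines and no WT replicate lay on chromosome 15, 27922145 to 27923766, with 1558 bp in KO1 and 1067 bp in KO2 at D2. The second, on chromosome 8 (80756924 to 80758427), had 566 bp in KO1 and 1504 bp in KO2. The third, on chromosome 10 (76627993 to 76629353), had been marked in all 5 lines at D0: 348, 415 and 266 bp in WT, 1361 bp in KO1 and 1180 bp in KO2. At D2 WT had 0 bp there while KO1 kept 292 bp and KO2 1361 bp. The others lay on chromosome 8 (11825627 to 11826920) and chromosome 1 (153845776 to 153847015). In all 5 regions KO2 had a D0 peak smaller than its D2 peak, and KO1 had a D0 peak in the chromosome 10 region alone.

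Among the stronger peaks, those of KO2 were found in the WT lists less often than those of the other libraries. Peaks were ranked by the authors' -log10 p within each list and read in bins of 20000. Of the strongest 20000, both other WT lists held 95.9% of the peaks of WT A, 96.6% of WT B and 97.9% of WT C. Both lists of a WT pair held 93.4% of those of KO1 and 78.5% of those of KO2, as means over the 3 pairs. In ranks 20001 to 40000 KO1 had 76.5% and KO2 59.6%, beside 78.0 to 87.2% in WT. In ranks 80001 to 100000, which are the end of the list in KO2 and the middle of it in WT A, the share was 34.9% in WT A, 40.2% in WT B, 39.5% in KO1 and 38.7% in KO2. WT C has no full bin there. Neither list of the WT pair held 38.9% of the KO2 peaks of this bin, beside 32.7% in WT A, 21.3% in WT B and 30.6% in KO1.

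**Figure D4:**
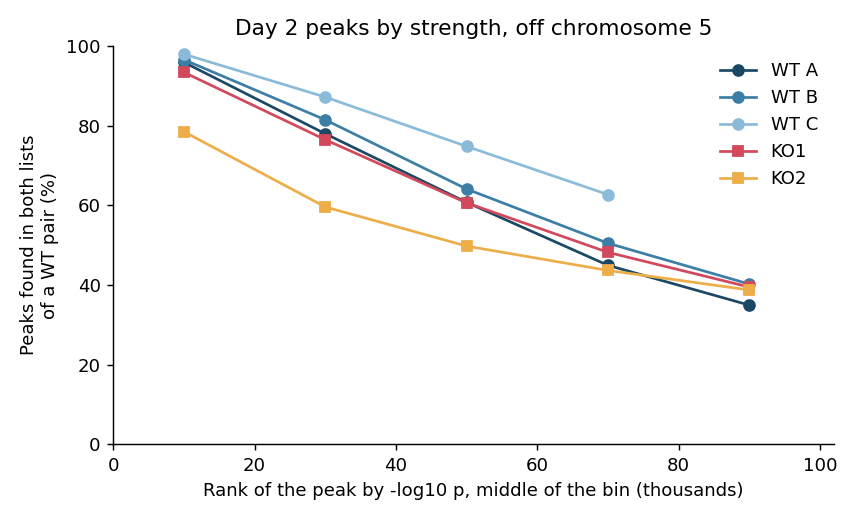
Share of day 2 peaks (%) that both lists of a WT pair also hold, by rank of the peak in bins of 20000, off chromosome 5. WT replicates are read in the other pair and KO lines in all 3 pairs. In the strongest bin WT lies at 95.9 to 97.9%, KO1 at 93.4% and KO2 at 78.5%, and in ranks 80001 to 100000 KO1 and KO2 lie between WT A and WT B.

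This bin was then looked at from both sides, a choice made after its values were seen. Regions among the strongest 20000 peaks of 2 WT replicates numbered 11915 to 12492. The WT replicate left out lacked any peak in 28 (A), 9 (B) and 83 (C) of them, at most 0.671%. KO1 lacked one in 130 to 137 (1.09% on average) and KO2 in 901 to 1021 (7.82%). This reads the same peaks from the other side and is a description. The difference between KO and WT was 4.13 points. It was 0.77 points with KO1 alone and 7.49 points with KO2 alone. KO2 had a D0 peak in 25.8 to 29.3% of the regions it lacked at D2, beside 65.7 to 67.6% of all these strong regions.

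On the other side, 1827 of the strongest 20000 peaks of KO2 (9.13%) had no peak in any of the 3 WT D2 lists. The count was 187 in KO1, and for WT A, B and C against the 2 other WT lists it was 104, 72 and 49. KO2 had a peak at D0 in 49.4% of its 1827 positions and at D10 in 59.7%. KO1 had a D2 peak in 15.4%. WT had a D0 peak in 15.5% (A), 24.0% (B) and 4.98% (C) of them. No other line had a peak in more than 24.0% of them at D0 or more than 18.8% at D10. The longest lay on chromosome 2 (172075162 to 172076782), where KO2 had 482 bp at D0, 1621 bp at D2 and 1531 bp at D10, and KO1 had 0 bp on all 3 days. The longest but one was the chromosome 8 region above, and the third, on chromosome 12 (77066730 to 77068222), had 794, 1493 and 1089 bp in KO2. All 3 WT libraries had peaks at that position at D10 (671, 759 and 889 bp). In KO1 the longest such peak, on chromosome 15 (27922655 to 27923766), had 0 bp at D0, 1112 bp at D2 and 842 bp at D10. The second, on chromosome 4 (152931980 to 152933056), covered 1077 bp on each day, and KO2 had 873 bp there at D2. The third, on chromosome 12 (120081042 to 120082060), had 0, 1019 and 994 bp.

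The share of D2 peaks found in embryonic stem cells depended on the stem cell list used. V6.5 mESC lists were used as a reference of the pluripotent pattern, with 1 library each at 0, 12 and 72 hours. Peaks found in at least 2 of these lists numbered 11949. They overlapped 4.43, 4.69 and 4.98% of the D2 peaks of WT A, B and C, 4.60% of those of KO1 and 4.48% of those of KO2. Both lines thus lay inside the WT range, and the KO minus WT difference was -0.16 points (exact permutation p = 0.5). Against the 0 hour list alone the shares were 10.7, 11.6 and 12.5% in WT, 11.1% in KO1 and 9.83% in KO2, below each WT value (difference -1.11 points, exact permutation p = 0.3). KO2 was also below WT when only the strongest peaks were read in the 2-of-3 set (5.74%, beside 6.23 to 6.51% in WT and 6.32% in KO1). Against the 72 hour list alone the difference was 0.36 points. There KO1 (3.61%) and KO2 (3.95%) both lay above WT (3.49, 3.39 and 3.37%; exact permutation p = 0.1, the smallest possible).

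At D2 the lines lay on opposite sides of WT on chromosome 5, and at D0 only KO1 stood outside WT. Per 100 peaks elsewhere on chromosomes 1 to 19, WT A, B and C had 6.69, 6.77 and 6.03 peaks on chromosome 5. KO1 had 11.5, or 1.77 times the WT mean, and KO2 4.99, or 0.768 times. The same ratios at D0 were 1.82 and 0.930. At D0 chromosome 5 held 5.41, 5.63 and 6.81% of the peaks of WT A, B and C, 10.3% of KO1 and 5.56% of KO2, which was inside the WT range. On the 18 other chromosomes the ratios at D2 lay between 0.887 and 1.06, the lowest being KO2 on chromosome 11. The KO mean against WT on chromosome 5 gave an exact permutation p of 0.7 (0.831 adjusted over 19 chromosomes), since the lines lay on opposite sides of WT. The excess of KO1 was spread over the chromosome: in each of 16 pieces of 10 Mb its covered bp, scaled to the rest of the genome, was 1.76 to 2.68 times the WT mean. In KO2 the pieces ran from 0.477 to 1.55 times.

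**Figure D5:**
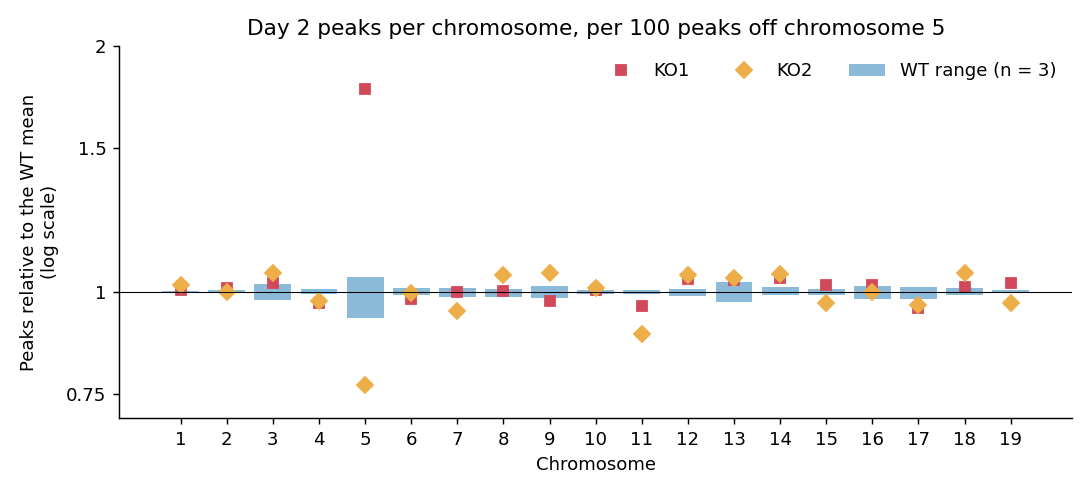
Peaks per chromosome at day 2, per 100 peaks off chromosome 5 and relative to the WT mean (log scale), with the range of the 3 WT replicates as bars. Chromosome 5 stands at 1.77 in KO1 and 0.768 in KO2, and all other chromosomes lie between 0.887 and 1.06.

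Early gain on chromosome 5 was read apart for this reason. In the 1867 to 3389 gained regions of that chromosome, WT A, B and C had a D2 peak in 91.8, 86.6 and 57.4%. KO1 had one in 92.7 to 95.3% and KO2 in 35.3 to 46.3%. KO1 already had a peak at D0 in 18.2 to 24.8% of these regions, beside 6.09% of the gained regions elsewhere. None of the 1970 windows of chromosome 5 passed the test between KO and WT at D2 (limma; 45 at an unadjusted p under 0.05). The median log2 difference from WT was 0.69 in KO1 and -0.38 in KO2.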

How the data were processed

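5hmC was labelled, coupled to biotin and captured from sonicated DNA, per the labels' protocols. The authors' tools were Bowtie, SAMtools and MACS2, on mm9, per the submitters' processing notes, with versions not given in the sources used here. Each library has its own deposited peak list, with the authors' score, fold as a linear ratio, and -log10 of p and of q, which served only to rank or filter peaks and to read depth. Depth relative to the input comes from the steps of the fold values in the pre-iPSC lists. The D0 list of WT C is the only list whose run name lacks the word input. Whether its peaks were called against the input is not stated. That list helps to choose the gained and lost regions and enters the WT D0 mean. Absolute depth is unknown.

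Samples were grouped by title. Nothing in the labels gives separate cultures for replicates, and p-values therefore cover only a spread that could be technical. KO1 and KO2 were taken as the same lines on each day (deviations from group means correlated by 0.304 between D0 and D2 over windows). WT letters were not paired (-0.04, 0.00 and 0.01). The exception is gained and lost regions, where the D0 and D2 libraries of a WT letter were kept or left out together.

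Peaks were shared at 1 bp of overlap. Exact permutation tests were two-sided over 10 assignments of 2 and 3 libraries, with regions chosen anew in each. Covered bp in 10 kb windows, scaled to the mean total off chromosome 5, entered limma 3.58.1 (R 4.3.3; lmFit, eBayes with trend and robust) as log2(bp + 200), where the mean was at least 500 bp. The fit held 15 libraries in 6 groups, with Benjamini-Hochberg adjustment at 0.05 over all windows, chromosome 5 included. Log2 changes on this scale understate those of sparse windows. The script was tested on simulated data.

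Named regions are the 4 longest gained regions of each outcome and the 5 longest of all WT or both KO alone. Named windows were to be the largest changes past the threshold, of which there were 0, so windows of lowest p and strong KO peaks were named after their values were seen. The comparison, lists and tests were chosen with earlier results of these data known. Genes and sequences were not used, because the reference tables are of another build.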

Additional observations from a re-analysis of the deposited data

Results flagged for a closer look

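The share of peaks on chromosome 5 at D2 was 1.77 times the WT mean in KO1 and 0.768 times in KO2, so the lines lay on opposite sides of WT. This difference between the lines was not tested, as each has 1 library at D2. Counts given off chromosome 5 do not hold it. No group here has 4 or more samples, so none was searched for a sample far from the others.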

How the results depend on the processing

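With 2 KO libraries, 1 per line, no exact test could pass 0.05, and a KO mean hides lines that differ. Over 229 alternative values, 159 kept their direction, and for counts stayed within 1.5 times, 61 moved and 9 turned sign. The 159 include counts of 0 calls that stayed 0, which have no direction. These were 22 of 22 each way for the interaction, and 18 of 18 higher and 17 of 18 lower for KO minus WT at D2. Called windows of KO minus WT at D2 and of the interaction numbered 0 in every setting, except 4 lower in KO, 37 in KO2 and 1 in KO1 with equal numbers of the strongest peaks.

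The D2 minus D0 counts (WT higher and lower, then KO higher and lower) depended on most settings. The number of windows tested off chromosome 5 differed too, from 25707 in the main fit, so the counts alone do not compare as shares. They were 3769, 105, 1725 and 19 of 25587 without scaling. With every window they were 2731, 3103, 297 and 180 of 113159. A mean of at least 2000 bp gave 173, 0, 25 and 0 of 1196. In 5 kb windows they were 3951, 1374, 1705 and 532 of 51473, and in 50 kb windows 594, 46, 139 and 16 of 4754. Lower calls moved alone with a pseudocount of 50 bp (130 in WT) or 1000 bp (681 and 224) and with the 10 libraries of D0 and D2 (824 and 243). With -log10 q of at least 5, WT had 189 lower and KO 298 higher and 40 lower. Equal numbers of the strongest peaks left KO with 262 higher and 51 lower of 14484. Leaving out each library in turn gave 485 to 1699 higher and 54 to 332 lower in WT, and 0 to 1215 and 0 to 138 in KO. WT counts were 857 and 54 without D0 A, 505 and 107 without D2 A, 496 and 92 without D2 B, 485 and 75 without D2 C, and 88 lower without D0 B. KO counts were 381 and 14 without KO1 at D0, 0 and 0 without KO1 at D2, 48 lower without KO2 at D0, 226 and 55 without KO2 at D2, and 1215 and 138 without WT D0 C. With the line as a replicate block the counts were 1892 and 401 in WT and 724 and 115 in KO, with 0 interaction calls, and a block for the run-name style left 0 calls between KO and WT at D2.

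Log2 peak number and covered bp turned sign on chromosome 5 alone (0.14 and 0.21), without WT A (0.063 and 0.057) and without KO2 (0.012 and 0.16). Leaving out each library gave -0.23 to 0.063 and -0.29 to 0.16. Early lost regions turned sign with -log10 q of at least 5 (-0.26 points) and without WT B (-2.77), over a range of -2.77 to 1.26. The mESC share did so against the 72 hour list (0.36 points), and ran from -0.30 to -0.02 over libraries. The gained difference ran from -26.6 to -2.60 points, the overlap difference from -15.5 to -2.70 and the strong-region difference from 0.77 to 7.49. Regions of all WT and no KO ran from 6964 to 22009 (8676 without WT B, 13225 without WT C, 22009 without KO1, 9242 without KO2). Regions of both KO and no WT ran from 4035 to 26872 (6160 without WT A, 4920 without WT B, 26872 without KO1, 18615 without KO2). The leave-out counts of both classes exceed the main counts, 5160 and 3260, largely by definition, because leaving out a library removes a condition from the class. The strongest peaks gave 3117 and 1890. The cause of the other shifts was not tested.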
